A study of Mus musculus with 3 samples.

Results

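Voltage-gated sodium channels carry the inward current of the action potential, and the ganglia that hold the cell bodies of sensory neurons use an unusual set of them. The transcripts of 9 sodium channel genes were followed in single cells of mouse dorsal root ganglia (DRGs): the pore-forming α subunits Scn1a, Scn3a, Scn8a, Scn9a, Scn10a and Scn11a, the α-like subunit Scn7a, and the β subunits Scn2b and Scn4b. They were taken by gene symbol from the 31053 genes of the count table.

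All mice were male C57BL/6J in postnatal week 13. The naive library came from untreated mice, and the other libraries from mice 7 or 14 days after spared nerve injury (SNI) of both hind legs, an operation that cuts branches of the sciatic nerve and leaves another intact. Each library pooled the 8 L3 and L4 DRGs of 2 mice, so that the mice of a pool cannot be told apart. With a single library each, the conditions were compared without replicates, and no test is given. L3 and L4 DRGs also hold neurons whose axons the operation does not cut.

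Neurons, satellite glial cells (SGCs), non-myelinating and myelinating Schwann cells, mural cells, fibroblasts, endothelial cells and immune cells were told apart by marker genes, none of which is a sodium channel. A class name stands for cells that carry those markers, and the authors' own annotation was not used. Neurons were further divided into large Nefh-type, non-peptidergic Mrgprd-type, peptidergic Tac1-type, Th-type (C-low-threshold) and Sst-type (itch) neurons. A level is given as CPM: the UMIs of a gene (unique molecular identifiers, which count captured mRNA molecules), summed over the cells of a class in a library and scaled to 1000000 UMIs of those cells. Intervals, given in parentheses after a level or a ratio, are exact 95% intervals and cover counting error only, so they are narrower than the spread between mice or between cells.

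Of the α subunits, those encoded by Scn10a (NaV1.8) and Scn11a (NaV1.9) resist the toxin tetrodotoxin and are found mainly in small neurons that sense damage and itch. Scn1a (NaV1.1), Scn3a (NaV1.3), Scn8a (NaV1.6) and Scn9a (NaV1.7) encode channels that the toxin blocks, and Scn7a encodes Nax, a relative that is not gated by voltage in the usual way. β subunits are single-pass membrane proteins that bind the pore-forming subunit and shape its gating and its place in the membrane, and loss or gain of Scn9a function in people removes pain or causes it.

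Total UMIs were 23107376 in the naive, 22343246 in the day 7 and 36550911 in the day 14 library, from 3748, 3281 and 4908 barcodes. After the filters 3123, 2651 and 3784 cells were used, with 7, 3 and 8 barcodes that also occurred in another library. Neurons numbered 130, 214 and 147, and the day 7 neurons stood apart: their median depth was 2190.5 UMIs, against 59700 in the naive and 78419 in the day 14 library. Of the day 7 neurons, 144 held under 5000 UMIs, against 18 and 21. Myelin markers moved with that depth, with a median summed level per neuron of 177, 3277 and 224 CPM. Because a level sums UMIs, it rests mostly on the deep neurons, which numbered 112, 70 and 126. The share of all neuron UMIs that came from Mrgprd-type neurons was 44.8%, 37.4% and 26.8%, and that from Th-type neurons 27.3%, 14.0% and 11.7%.

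In the mouse genome (GRCm38, GENCODE vM21) the members lie on 3 chromosomes. Scn3a, Scn1a, Scn9a and Scn7a follow each other on chromosome 2, all on the minus strand: Scn3a at chr2:65457118-65567627, Scn1a at chr2:66270778-66440840, Scn9a at chr2:66480080-66634962 and Scn7a at chr2:66673425-66784914. Scn10a (chr9:119608456-119719322) and Scn11a (chr9:119753759-119825456) are neighbours on the minus strand of chromosome 9. The β subunit genes Scn2b (chr9:45117782-45130070) and Scn4b (chr9:45138395-45154152) are also neighbours, on the plus strand of the same chromosome. Scn8a stands alone at chr15:100869858-101045938 on the plus strand. Of the genes annotated on the opposite strand, Gm13629 overlaps exons of Scn9a, and it held 4 UMIs in all barcodes against 10306 for Scn9a.

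The 250 bases before the RefSeq start (GRCm38.p6) are shown for Scn11a and Scn9a, the first low and the second present in Nefh-type neurons. As with Scn8a, which is not shown, these windows do not run into an annotated exon. Both are on the minus strand, Scn11a at chr9:119825457-119825706 and Scn9a at chr2:66634963-66635212.
Scn11a: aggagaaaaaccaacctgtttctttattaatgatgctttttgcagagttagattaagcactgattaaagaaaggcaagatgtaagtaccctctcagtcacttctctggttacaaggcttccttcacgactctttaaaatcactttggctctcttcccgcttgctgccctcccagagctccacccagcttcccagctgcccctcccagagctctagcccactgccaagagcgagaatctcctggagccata
Scn9a: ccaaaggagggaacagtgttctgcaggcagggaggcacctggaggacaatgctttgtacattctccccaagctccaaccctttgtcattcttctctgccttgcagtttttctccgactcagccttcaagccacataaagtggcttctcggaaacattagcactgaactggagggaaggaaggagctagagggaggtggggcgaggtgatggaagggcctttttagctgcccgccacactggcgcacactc
The letters TGANTCA and TGACGTCA, which factors of the AP-1 and CREB/ATF families are known to bind, were searched on both strands in the windows of the 8 members that have one; Scn3a has none. Neither was found in any of them, so no letter is capitalised. Of the 32817 promoter windows searched in all, 6.75% and 1.55% held them. At such shares the windows of 8 members are too few for their lack to set them apart from other promoters.

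**Figure D1:**
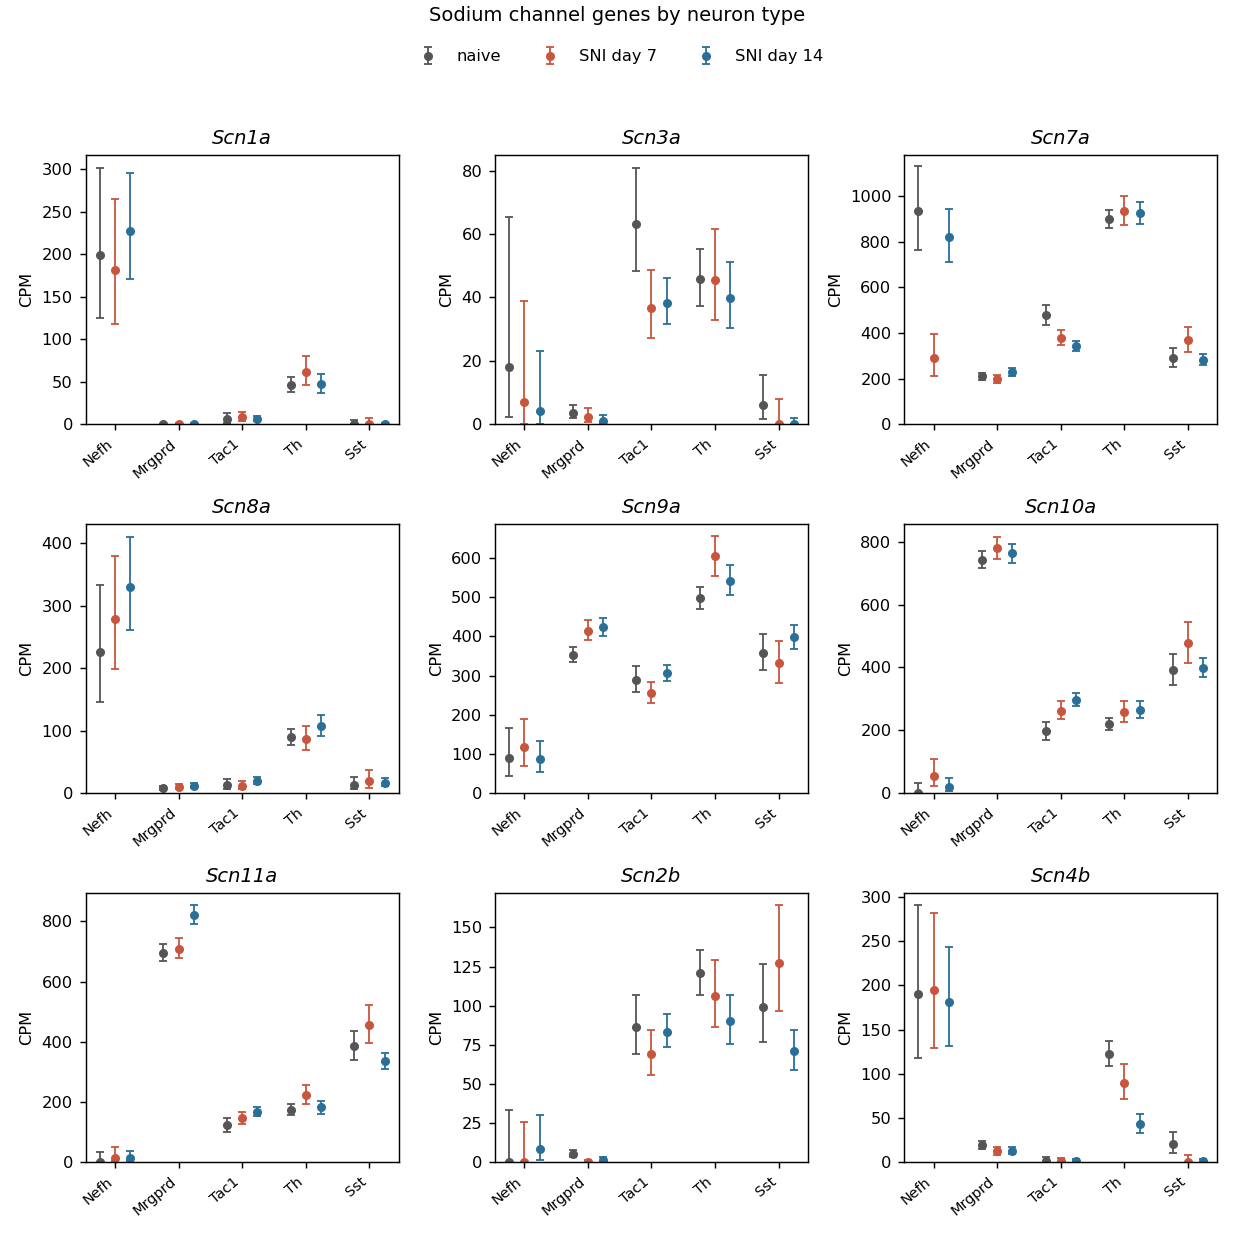
CPM of the 9 sodium channel genes by neuron type, with 1 point for each library and exact 95% counting intervals as bars. Scn10a and Scn11a were highest in Mrgprd-type neurons, Scn1a, Scn8a and Scn4b in Nefh-type neurons, and Scn9a in Th-type neurons, in each of the 3 libraries.

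Scn10a and Scn11a were the channels of Mrgprd-type neurons. In these neurons, which end in the skin and respond to mechanical stimuli, Scn10a stood at 742 CPM in the naive library, 780.3 CPM at day 7 and 763 CPM at day 14, and Scn11a at 696, 710.1 and 822 CPM in the same order. Sst-type neurons came next with 390.5, 476 and 398 CPM of Scn10a and 384, 455 and 335 CPM of Scn11a. In each library these 2 types did not overlap in Scn10a by their counting intervals, and both stood above every other type.

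Th-type and Tac1-type neurons held less of both genes. Scn10a was 219, 259.8 and 265 CPM in Th-type and 197, 263 and 298 CPM in Tac1-type neurons, and these neighbours in the order could not be separated by their intervals in any library. Scn11a was 174, 222 and 181 CPM in Th-type and 122, 145 and 166 CPM in Tac1-type neurons. In the few Nefh-type neurons (4, 15 and 5 cells), the large cells of touch and position sense, Scn10a was 0, 55.8 and 20.6 CPM and Scn11a 0, 13.9 and 12.4 CPM. The naive count of 0 Scn10a UMIs rests on 4 cells, and 3 counts there would be 27.2 CPM.

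Scn9a, the channel that amplifies small depolarisations, was present in all 5 types. It was highest in Th-type neurons with 497 CPM in the naive library, 604 CPM at day 7 and 543 CPM at day 14. Sst-type neurons held 358, 332 and 398 CPM, Mrgprd-type neurons 353, 415 and 424 CPM and Tac1-type neurons 289.8, 256 and 306 CPM. The intervals of Sst-type and Mrgprd-type neurons overlapped in the naive and day 14 libraries, and those of Sst-type and Tac1-type neurons at day 7. Even the Nefh-type neurons, the lowest, held 90.6, 118 and 86.7 CPM, so the spread between types was smaller than for Scn10a and Scn11a.

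Scn8a and Scn1a, the fast channels of myelinated axons, were highest in Nefh-type neurons. Scn8a was 226, 279 and 330.3 CPM in Nefh-type neurons and 89.7, 86.6 and 107 CPM in Th-type neurons, and between 8.40 and 19.8 CPM in the other types. Scn1a was 199, 181 and 227 CPM in Nefh-type and 46.6, 61.7 and 47.2 CPM in Th-type neurons. These Nefh-type levels lean on single cells, since 1 cell gave 59.1%, 80.8% and 78.2% of their Scn1a UMIs and 52.0%, 45.0% and 72.5% of their Scn8a UMIs.

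Outside those types Scn1a was close to absent. Mrgprd-type neurons held 0, 0 and 2 Scn1a UMIs among 3808222, 2463124 and 3399744 UMIs in all, and Sst-type neurons held 0 in each library. Tac1-type neurons held 6.10, 8.42 and 6.38 CPM.

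Scn3a, the channel best known from the embryonic nervous system, was low throughout. It was 63.0, 36.8 and 38.3 CPM in Tac1-type and 45.7, 45.5 and 39.8 CPM in Th-type neurons, and at most 18.1 CPM in the other types. The intervals of Tac1-type and Th-type neurons overlapped in each library. In Tac1-type neurons Scn3a was 0.583 (0.391 to 0.864) and 0.607 (0.442 to 0.842) times the naive level at days 7 and 14. The day 7 value depends on which cells are kept, since its log2 ratio of −0.78 ranged from −3.13 in neurons of little glial RNA to 0.21 under a stricter cell filter. In pooled neurons Scn3a was at 23.2 CPM in the naive library, 21.7 CPM at day 7 and 20.8 CPM at day 14.

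Scn7a, which encodes Nax, was found in every neuron type. Th-type neurons held 897 CPM in the naive library, 934 CPM at day 7 and 923 CPM at day 14, Tac1-type neurons 478, 378 and 342 CPM, Sst-type neurons 289.8, 369 and 283 CPM and Mrgprd-type neurons, the lowest, 211, 199 and 229.7 CPM. Nefh-type neurons held 933, 293 and 822 CPM, and 12 of the 15 Nefh-type neurons of the day 7 library held under 5000 UMIs. Nefh-type and Th-type neurons overlapped in the naive and day 14 libraries. Summed markers of non-myelinating Schwann cells, which held more Scn7a, had pooled levels of 446, 675 and 760 CPM in neurons. What part of the neuronal Scn7a came from RNA of such cells was not tested.

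The β subunits split the types in 2 ways. Scn2b was 121, 106 and 90.3 CPM in Th-type, 99.1, 127 and 70.9 CPM in Sst-type and 86.4, 68.9 and 83.3 CPM in Tac1-type neurons, but only 4.99, 0 and 1.18 CPM in Mrgprd-type neurons. The few Nefh-type neurons also held little, with 0, 0 and 2 Scn2b UMIs among 110433, 143495 and 242232 UMIs in all. Scn4b, whose product can act as an open-channel blocker, was 190.2, 195 and 182 CPM in Nefh-type and 122, 89.9 and 42.5 CPM in Th-type neurons, whose intervals overlapped in the naive library alone. Scn4b was 18.9, 12.2 and 12.9 CPM in Mrgprd-type neurons, which thus held more Scn4b than Scn2b transcripts per UMI in each library. In Tac1-type neurons Scn4b was 1.02, 0.766 and 1.34 CPM, and in Sst-type neurons 19.8, 0 and 0.586 CPM.

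After injury the pooled neurons had somewhat lower levels of most members, and 1 gene stood out. Scn4b was 54.1 (49.2 to 59.2) CPM in the naive library, 22.4 (19.0 to 26.4) CPM at day 7 and 18.0 (15.7 to 20.5) CPM at day 14. It was the 1 member of 9 at least 2-fold lower, 0.415 (0.343 to 0.501) times the naive level at day 7 and 0.333 (0.283 to 0.391) at day 14. With 11 other choices of filter, classes, scaling or depth its log2 ratio lay between −1.30 and −1.13 at day 7 and between −1.80 and −1.23 at day 14. Of all genes with at least 20 summed UMIs in the compared libraries, 1.81% were at least 2-fold lower at day 7 and 1.45% at day 14. With every cell counted equally, 4 members were at least 2-fold lower at day 7, and under a stricter cell filter 2 at day 14. No member was at least 2-fold higher, against 4.26% and 6.81% of all genes. The median log2 ratio of the members was −0.38 and −0.21, beside 0.03 and 0.09 over all genes compared.

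**Figure D2:**
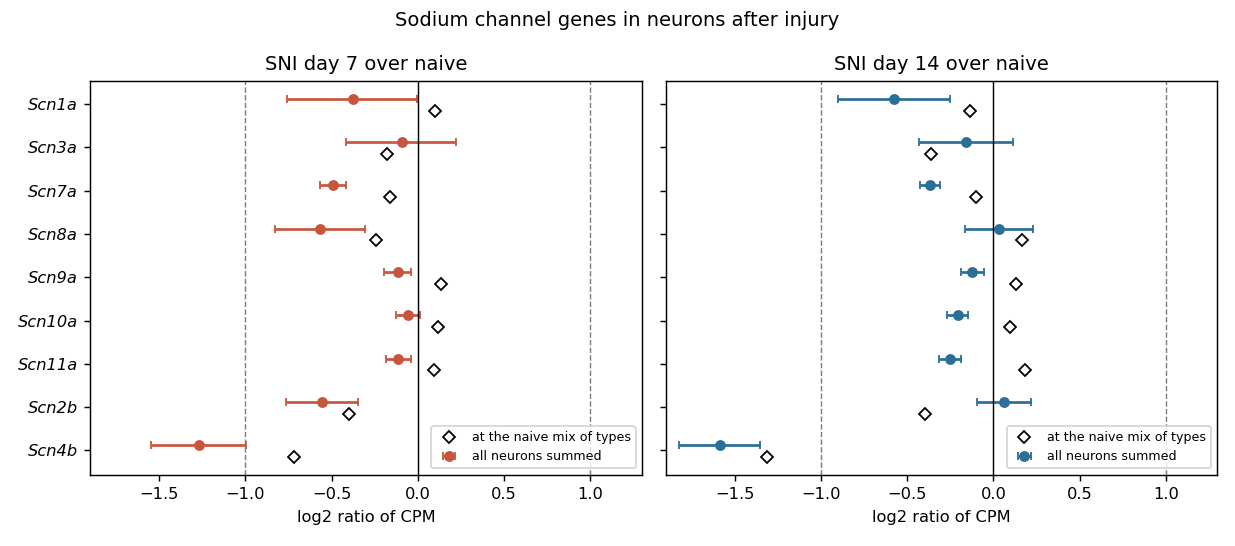
Log2 ratio of CPM in neurons, day 7 (left) or day 14 (right) over naive, for the 9 members. Filled points are all neurons summed, with exact 95% counting intervals as bars, open diamonds the ratio at the naive mix of types, and dashed lines 2-fold. Summed, Scn4b lay below the lower 2-fold line at both times, and the other members lay between −0.57 and 0.06.

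The tetrodotoxin-resistant pair stayed near its naive level in pooled neurons. Scn10a was 459 CPM in the naive library, 440.1 CPM at day 7 and 397 CPM at day 14, which is 0.959 (0.914 to 1.01) and 0.866 (0.831 to 0.903) times the naive level. Scn11a was 413, 381 and 347 CPM, or 0.925 and 0.841 times. Scn9a was 384, 354 and 353 CPM, or 0.922 and 0.919 times.

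Scn7a was 482, 343 and 374 CPM in pooled neurons, 0.710 (0.674 to 0.748) and 0.775 (0.743 to 0.809) times the naive level. Scn1a was 18.9, 14.6 and 12.7 CPM, with ratios of 0.769 (0.591 to 0.997) and 0.672 (0.536 to 0.841), and its day 7 log2 ratio ranged from −1.05 with every cell counted equally to 0.16 under a stricter cell filter. Scn8a was 42.0, 28.4 and 42.9 CPM and Scn2b 65.1, 44.3 and 67.9 CPM: both were lower at day 7, at 0.676 and 0.680 times the naive level, and near it at day 14, at 1.02 and 1.04 times.

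The mix of types moved along with these ratios, so each was also computed with the types weighted by their naive share of UMIs. Neurons of no type entered as a further group at their naive 7.43% of UMIs, although they gave 19.6% and 22.6% at days 7 and 14. At that mix Scn10a was 1.08 and 1.07 times the naive level, Scn11a 1.07 and 1.14, and Scn9a 1.10 and 1.09. At a constant mix these 3 ratios were thus above 1, whereas the pooled ones were below it. Most neurons with the injury markers described below had no type (9 of 13 and 18 of 30), so this mix also gives them less weight. It is therefore not a correction for type alone. Scn4b had the lowest ratio here too, with 0.609 and 0.403, followed by Scn2b with 0.757 and 0.760. Scn7a was 0.893 and 0.932, Scn3a 0.884 and 0.780, Scn1a 1.07 and 0.909, and Scn8a 0.847 and 1.12.

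Within types few members were past 2-fold. In Mrgprd-type neurons 0 of the 7 members compared were past 2-fold at day 7, where 2.34% of genes were higher and 1.26% lower. At day 14 it was 1 of 7, Scn2b, which was 0.236 (0.0583 to 0.710) times a low naive level (19 against 4 UMIs; the log2 ratio turned to 2.26 with Leiden clusters as types), beside 1.12% of genes lower and 2.15% higher. At day 7 Scn2b in Mrgprd-type neurons was under the limit of 20 summed UMIs and was not compared. It had 0 UMIs there against 19 in the naive library, a ratio of 0 to 0.331 by its interval. In Tac1-type neurons 0 of 7 and 0 of 8 members were past 2-fold (3.14% and 3.81% of genes higher, 2.99% and 2.56% lower). The largest ratio above 1 there was that of Scn10a, 1.33 (1.11 to 1.60) at day 7 and 1.51 (1.29 to 1.77) at day 14. It depends on which cells are kept: under a stricter cell filter its log2 ratios were −0.081 and 0.20, in place of 0.41 and 0.59, and in neurons of little glial RNA they were 1.28 and 1.15, past 2-fold. Low Scn8a in this type was less settled still, with log2 ratios from −1.81 to 2.61 at day 7 and from −0.19 to 1.89 at day 14 over 11 alternatives. In Sst-type neurons 0 of 5 and 0 of 6 members were past 2-fold (2.56% and 5.75% of genes higher, 4.33% and 2.26% lower). Scn4b, under the limit of 20 summed UMIs, was not among the members compared there. It had 13 UMIs in 9 naive cells, 0 in 5 cells at day 7 and 1 in 19 cells at day 14.

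In Th-type neurons 0 of 9 members were past 2-fold at day 7 (2.18% of genes higher, 1.91% lower) and 1 of 9 at day 14 (2.49% higher, 2.13% lower). That gene was again Scn4b, 0.348 (0.260 to 0.459) times the naive level at day 14 and 0.736 (0.569 to 0.944) at day 7. The remaining Scn4b signal came largely from single cells, since 1 of 10 cells gave 54.2% of it at day 7 and 1 of 14 gave 52.4% at day 14, against 14.5% from the highest of 32 naive cells. In Nefh-type neurons Scn4b was level over the libraries, and 1 of 5 members compared was past 2-fold, Scn7a at day 7 with 0.314 (0.214 to 0.453), beside 8.95% of genes lower and 9.89% higher in these few cells. At day 14 it was 0 of 5, beside 5.13% lower and 5.75% higher.

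Neurons that no type claimed differed most. They numbered 22, 113 and 47, had median depths of 3943, 1380 and 33066 UMIs, and gave 7.43%, 19.6% and 22.6% of the neuron UMIs. In them 5 of 9 members were at least 2-fold lower and 1 higher at day 7, where 9.19% of genes were lower and 8.43% higher. At day 14 it was 3 lower and 1 higher, beside 5.2% and 8.39% of genes. The higher one was Scn3a at both times, with 14.2 CPM in the naive library, 35.5 CPM at day 7 and 29.7 CPM at day 14, or 2.50 (1.21 to 5.80) and 2.09 (1.05 to 4.72) times, and 1 cell gave 45.7% of its UMIs at day 7. Scn4b was 111, 4.64 and 25.2 CPM and Scn1a 39.5, 1.55 and 5.24 CPM, where 1 naive cell gave 55.7% and 40.0% of the UMIs.

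Atf3, a transcription factor, and Sprr1a, a small proline-rich protein, are switched on in sensory neurons whose axon is cut, and were used to look within each injured library. Among neurons of at least 10000 UMIs, 13 of 57 at day 7 and 30 of 119 at day 14 had a summed Atf3 and Sprr1a level of 100 CPM or more, against 2 of 107 naive neurons. Their median depths were near those of the neurons below that level, 95161 against 98551 UMIs at day 7 and 110628 against 86642 at day 14. Marked and unmarked neurons of a day came from the same library. The markers had first been read in neurons of any depth, and the limit was set after those values were seen, since in a cell under 10000 UMIs a single UMI reaches 100 CPM.

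Neurons with the injury markers held little Scn10a and Scn11a. At day 7 Scn10a was 44.5 (33.2 to 58.3) CPM with the markers and 531 (511 to 551) CPM without, a ratio of 0.0838 (0.0624 to 0.110). At day 14 it was 101 against 496 CPM, a ratio of 0.203 (0.181 to 0.228). Scn11a was 43.6 against 449 CPM at day 7 and 56.1 against 442 CPM at day 14, with ratios of 0.0971 (0.0721 to 0.128) and 0.127 (0.108 to 0.148). In the unmarked neurons 36 of 44 and 78 of 89 had a Scn10a UMI. Few of the marked cells carried the residual signal at day 7, when 6 of 13 had a Scn10a UMI and 1 cell gave 65.4% of these UMIs. At day 14, 24 of 30 had a Scn10a UMI and 18 of 30 a Scn11a UMI.

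**Figure D3:**
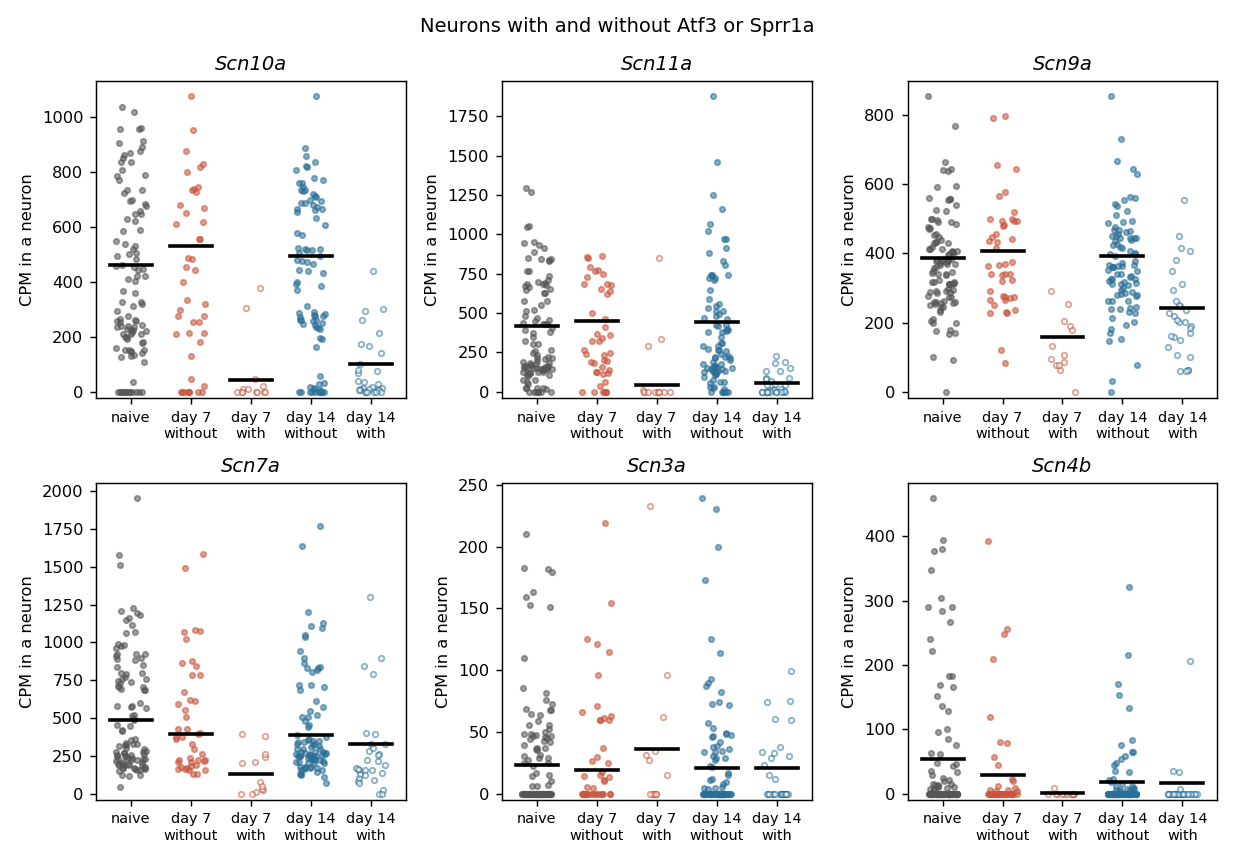
CPM of 6 members in single neurons of at least 10000 UMIs, by library and by whether summed Atf3 and Sprr1a reached 100 CPM (with) or not (without). Points are neurons, bars the level over their summed UMIs, and the naive points are the 105 unmarked naive neurons. Scn10a ended at 379 CPM in the 13 marked neurons of day 7 and at 438 CPM in the 30 of day 14, while unmarked neurons reached 1078 and 1077 CPM.

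Scn9a was lower by less. It was 158 against 406 CPM at day 7, 0.389 (0.333 to 0.453) times, and 243 against 391 CPM at day 14, 0.621 (0.573 to 0.672) times. Scn8a was 0.415 and 0.462 times the level of the unmarked neurons, and Scn2b 0.377 and 0.374 times. Scn1a was at 0 UMIs in the marked neurons of day 7, against 94 UMIs or 18.5 CPM in the unmarked ones (a ratio of 0 to 0.174 by its interval), and at 3.24 against 15.8 CPM at day 14.

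Other members had unlike ratios at days 7 and 14. Scn7a was 0.333 (0.280 to 0.392) times the unmarked level at day 7 but 0.837 (0.780 to 0.897) at day 14. Over the alternatives its log2 ratio ran from −1.78 to −0.43 at day 7 and from −0.61 to 0.35 at day 14, and these ranges overlap. Scn4b had 1 UMI against 143 at day 7, a ratio of 0.0304 (0.000763 to 0.172), and 16.5 against 18.5 CPM at day 14. Its log2 ratio ran from −5.71 to −1.19 at day 7 and from −1.03 to 0.67 at day 14. The day 14 direction is thus not firm for Scn7a or Scn4b. The day 7 ratio of Scn3a lay above 1, as that of no other member did: it was 35.9 against 19.3 CPM at day 7, 1.86 (1.26 to 2.70) times with 50% of the UMIs in 1 cell, and 20.4 against 20.6 CPM at day 14. That day 7 direction is not firm: the log2 ratio of 0.90 ranged from −0.69, with neurons of any depth and every cell counted equally, to 1.75 in neurons of little glial RNA. In all, 8 of 9 members were at least 2-fold lower in the marked neurons at day 7, where 14.0% of genes were lower and 9.77% higher. At day 14 it was 5 of 9, beside 9.82% lower and 6.93% higher, and no member was at least 2-fold higher at either day. Whether the days differ cannot be tested with 1 library each.

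The marked and unmarked neurons were not of the same types. Of the 13 marked neurons at day 7, 9 had no type, 2 were Tac1-type, 1 Nefh-type and 1 Mrgprd-type, while 14 of the 44 unmarked ones were Mrgprd-type. At day 14, 18 of 30 had no type, 6 were Sst-type, 4 Tac1-type and 2 Th-type, and 22 of the 89 unmarked ones were Mrgprd-type. Which type a marked neuron without a type had been was not tested. Within a type, values could be read in the 2 types with at least 4 marked cells, both at day 14, a split that was added after the pooled values had been seen.

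Among Sst-type neurons of day 14, 6 marked cells stood at 214 CPM of Scn10a and 12 unmarked cells at 518 CPM, a ratio of 0.413 (0.342 to 0.497). Scn11a was 127 against 474 CPM, a ratio of 0.267 (0.210 to 0.336), and Scn2b 21.9 against 104 CPM. Scn9a was 0.673 (0.570 to 0.794) times the unmarked level. These marked cells also differed in the genes that define the type, with 2385 against 272 CPM of the peptide gene Nts and 150.1 against 429 CPM of Nppb.

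Among Tac1-type neurons of day 14, 4 marked cells stood at 161 CPM of Scn10a and 29 unmarked cells at 325 CPM, a ratio of 0.496 (0.386 to 0.629). Scn11a was 92.3 against 179 CPM, a ratio of 0.516 (0.368 to 0.707). Scn7a was 0.523 and Scn9a 0.680 times the unmarked level, and Scn3a 0.148 and Scn8a 0.187 times, from 3 and 2 marked UMIs. These marked cells also held less of a gene that defines the type, with 2031 against 5519 CPM of the peptide gene Calca. The lowest ratio among members with UMIs in both groups was that of Scn2b, 0.0433 (0.00522 to 0.158). It stood at 4.29 against 99.1 CPM, from 2 and 246 UMIs. Within both types the ratios of Scn10a and Scn11a were thus below 1, and closer to 1 than over all marked neurons.

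In unmarked neurons of the injured libraries Scn10a, Scn11a and Scn9a stayed near the naive level. Scn10a was 463 CPM in unmarked naive neurons, 531 CPM at day 7 and 496 CPM at day 14, or 1.14 (1.09 to 1.20) and 1.07 (1.03 to 1.12) times, and Scn11a was 419, 449 and 442 CPM. Scn9a was 387, 406 and 391 CPM. Scn7a was 0.816 (0.773 to 0.861) and 0.803 (0.768 to 0.840) times the naive level at days 7 and 14. Scn8a was 0.735 and 1.17 times and Scn2b 0.791 and 1.22 times, with intervals that did not hold 1. Of the 9 members, 0 were past 2-fold at day 7, where 1.69% of genes were higher and 1.71% lower. At day 14 it was 1, beside 4.7% higher and 1.2% lower: Scn4b, with 0.346 (0.289 to 0.412) times the naive level, after 0.525 (0.432 to 0.636) at day 7. Lower Scn4b was thus also seen in the neurons without injury markers. The mix of types differed here too, with 29 of 105 Th-type in the naive library, 9 of 44 at day 7 and 11 of 89 at day 14. What part that has in these ratios was not tested.

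The shallow neurons of day 7 were kept out of that comparison. The 144 day 7 neurons under 5000 UMIs stood at 407 CPM (interval 332 to 493) of Scn10a and 489 CPM (interval 407 to 582) of Scn11a, beside 441 and 377 CPM in the 70 deeper ones, so that low Scn10a and Scn11a were not seen in them. Their Scn9a and Scn7a were 211 and 231 CPM, against 360.2 and 347 CPM in the deeper ones. With neurons of any depth, 123 of 214 were marked at day 7 and 34 of 147 at day 14, and the log2 ratio of Scn10a at day 7 was −2.28 in place of −3.58, and that of Scn11a −1.85 in place of −3.36. When in addition each of these cells counted equally, the day 7 ratios were −0.53 and −0.19 and 4 of 9 members were at least 2-fold lower, so the day 7 difference rests on the deep neurons. The day 14 log2 ratios with any depth were −2.30 and −2.97, close to the −2.30 and −2.98 of the deep neurons.

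The share of neurons with a UMI counts shallow and deep cells alike. A Scn10a UMI was found in 79.2%, 51.4% and 75.5% of neurons, and in 59.1%, 55.1% and 47.7% once each neuron was thinned to 3000 UMIs, which left out 13, 122 and 17 shallower neurons. For Scn9a the shares were 91.5%, 50.9% and 84.4%, and 65.7%, 56.7% and 56.7% after thinning. For Scn4b they were 36.2%, 10.3% and 23.1%, and 12.1%, 4.89% and 4.28%. In endothelial and immune cells, which should lack these channels, a Scn10a UMI was found in 1.75%, 1.48% and 3.66% of cells at median depths of 3091, 4276 and 4126 UMIs, a level that free RNA can give. Their shares were 0.249%, 1.69% and 1.76% for Scn9a and 0.499%, 0.633% and 0.878% for Scn4b.

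Outside neurons, Scn7a was a gene of non-myelinating Schwann cells, which ensheathe thin axons. There it stood at 4536 (4284 to 4800.4) CPM in the naive library, 4077 (3812 to 4356) CPM at day 7 and 2789.8 (2637 to 2949) CPM at day 14, and 115 of 130, 70 of 85 and 109 of 139 cells had a UMI. These are the highest levels of any member in any class. Myelinating Schwann cells stood at 12.0, 9.66 and 7.25 CPM, SGCs at 8.39, 7.38 and 7.36 CPM, and endothelial and immune cells, of which 2.49%, 2.32% and 4.54% had a UMI, at 5.0, 4.24 and 10.8 CPM.

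**Figure D4:**
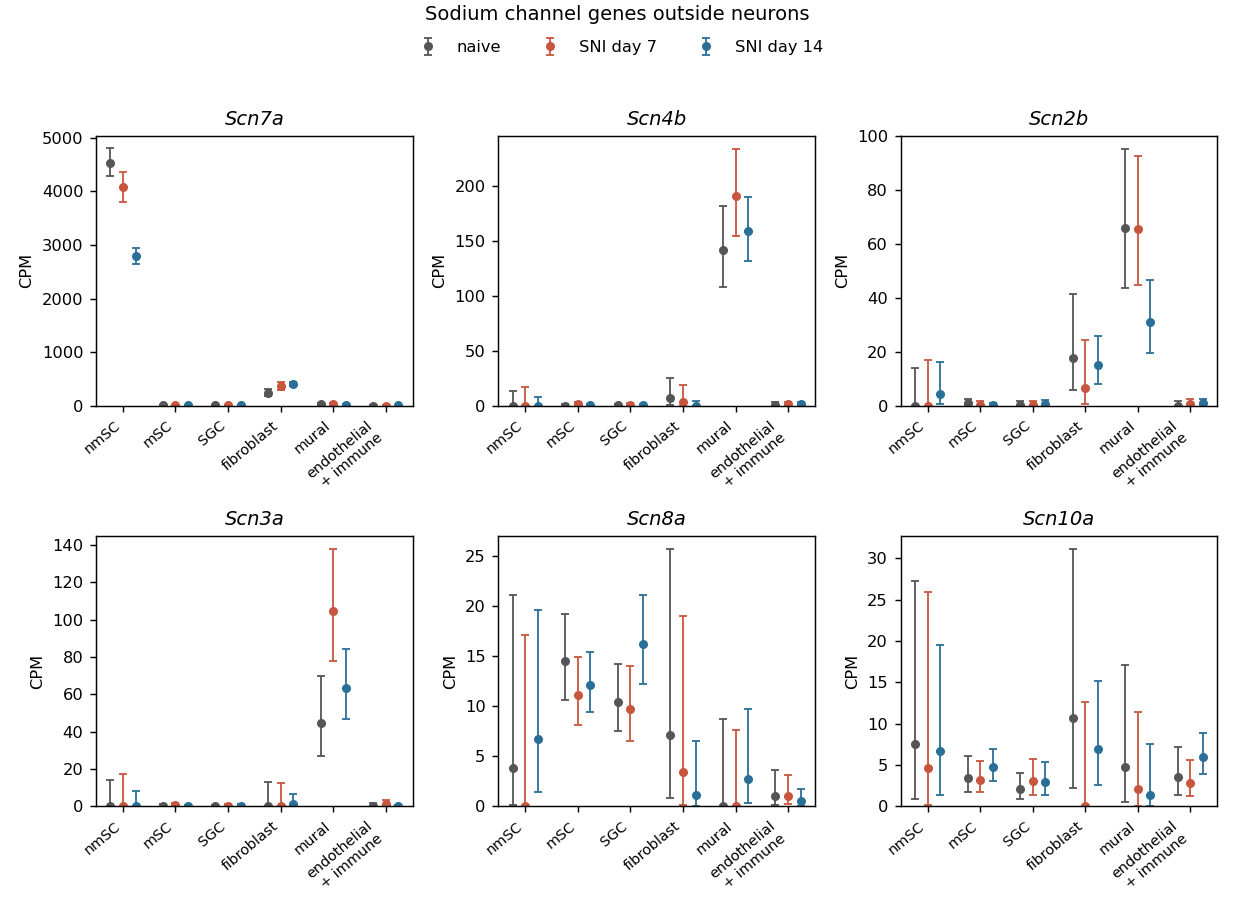
CPM of 6 members outside neurons by cell class and library, with exact 95% counting intervals as bars (nmSC and mSC are non-myelinating and myelinating Schwann cells). Scn7a stood at 2789.8 CPM or more in nmSC in each library, and Scn4b, Scn3a and Scn2b were highest in mural cells.

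Over the naive level, Scn7a in these Schwann cells was 0.899 (0.823 to 0.981) at day 7 and 0.615 (0.568 to 0.666) at day 14, neither past 2-fold. In this class 4.38% and 3.99% of genes were at least 2-fold lower and 2.61% and 4.26% higher. The gate also took cells that clustered with SGCs, whose share of the gate was 39 of 130, 18 of 85 and 32 of 139 cells. Gated cells in Schwann cell clusters held 5410.3, 5578 and 3615 CPM, and those in SGC clusters 2948, 643 and 629.6 CPM. The day 7 value thus turned from below to above the naive one when the latter were left out (log2 ratio 0.044), whereas day 14 stayed below it (−0.58).

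Summed over a library, neurons gave 71.5%, 65.5% and 69.5% of all Scn7a UMIs, and non-myelinating Schwann cells 20.9%, 25.5% and 18.3%. Cells that no class claimed gave 4.81%, 3.36% and 5.15%. Fibroblasts gave 1.18%, 3.16% and 5.16%, with 242, 371 and 408 CPM and a UMI in 40 of 87, 39 of 73 and 120 of 183 cells. Their ratios to the naive library were 1.54 (1.12 to 2.11) and 1.69 (1.3 to 2.23). Non-myelinating Schwann cell markers in fibroblasts, summed, had medians of 492, 772 and 781 CPM, and their part in that difference was not tested.

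Scn8a was low but above background in myelinating Schwann cells and SGCs. It was 14.4, 11.1 and 12.1 CPM in myelinating Schwann cells and 10.4, 9.73 and 16.2 CPM in SGCs, against 1.0, 1.06 and 0.482 CPM in endothelial and immune cells. Of the naive Scn8a UMIs, myelinating Schwann cells gave 9.92% and SGCs 8.65%. In the same glia Scn10a, Scn11a and Scn9a lay between 0.743 and 4.71 CPM, as low as in endothelial and immune cells (0.5 to 6.02 CPM).

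Mural cells, the smooth muscle cells and pericytes of vessels, held Scn4b, Scn3a and Scn2b. Scn4b was 142 CPM in the naive library, 191 CPM at day 7 and 159 CPM at day 14, with a UMI in 34 of 126, 44 of 102 and 48 of 178 cells. Scn3a was 44.8, 105 and 63.4 CPM, and 2.34 (1.36 to 4.19) times the naive level at day 7. Scn2b was 66.1, 65.8 and 31.0 CPM, and 0.469 (0.258 to 0.845) times at day 14. Of the 4 members compared in mural cells these were 1 past 2-fold higher at day 7 (2.86% of genes higher, 2.64% lower) and 1 lower at day 14 (2.25% lower, 4.03% higher), from 19 and 51 UMIs and from 28 and 23 UMIs. Neurons gave 86.6%, 56.5% and 63.0% of all Scn4b UMIs of the libraries, and mural cells 11.3%, 35.5% and 32.6%. Scn7a was lower in these cells, with 26.0, 26.7 and 24.3 CPM from 11, 13 and 18 UMIs. The median summed level of neuron markers in mural cells was 0 in each library, and their pooled level was 73.2, 92.5 and 109 CPM. A median over all cells does not describe the minority with a Scn4b UMI. Whether those cells held neuron RNA was not tested.

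Scn2a, another pore-forming α subunit, and Scn3b, another β subunit, were not members but were expressed in the same neurons. Scn3b was 80.1 CPM in the naive library, 60.1 CPM at day 7 and 80.8 CPM at day 14 in pooled neurons, and Scn2a was 28.9, 32.0 and 33.5 CPM. Neither was past 2-fold at either time. In marked against unmarked neurons Scn3b was 0.627 (0.455 to 0.849) times at day 7 and 0.664 (0.562 to 0.780) times at day 14. Scn2a was 1.34 (0.952 to 1.87) and 1.41 (1.14 to 1.73) times, with an interval that held 1 at day 7 and not at day 14.

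Of 12 listed partners, which bind, anchor or remove the channels, 11 could be compared in pooled neurons and 1 was past 2-fold, beside 4.26% of genes higher at day 7 and 6.81% at day 14. It was Fgf11, of the intracellular growth factor family that binds the channel's tail, with 1.65 CPM in the naive library, 8.04 CPM at day 7 and 16.4 CPM at day 14, or 4.88 (2.67 to 9.53) and 9.98 (5.81 to 18.6) times the naive level. With every cell counted equally, no partner was at least 2-fold higher at day 7. In marked against unmarked neurons 3 of 11 partners were at least 2-fold lower and 2 of 11 higher at each day, beside 14.0% of genes lower and 9.77% higher at day 7 and 9.82% and 6.93% at day 14. The lower ones were the relatives Fgf13 (0.197 and 0.363 times) and Fgf12 (0.291 and 0.275 times), and Nedd4l, a ubiquitin ligase that removes channels from the membrane (0.231 and 0.489 times). The higher ones were Fgf11 (2.43 and 5.90 times) and the adhesion molecule Nrcam (2.21 and 2.86 times). Ank3, the ankyrin that holds channels at the axon's initial segment, was 973 against 529 CPM at day 7 and 935 against 579.5 CPM at day 14.

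The 2 genes most like each member in level were sought by Pearson's r of log2(CPM + 1) over 32 points, the combinations of class or neuron type with library that had at least 20 cells, among 13202 genes. Points of 1 library share its depth, and points of 1 class share its identity, so r is a description. Scn10a was followed most closely by Sult4a1 (r = 0.95) and Fxyd2 (0.92), Scn11a by Tmem151b (0.96) and Siah3 (0.95), and Scn9a by Dpp6 (0.95) and Elavl2 (0.94). Scn1a was closest to Shh (0.94) and Ly6h (0.93), Scn8a to Fam171a2 (0.82) and Pclo (0.81), and Scn3a to Slc6a17 (0.96) and Rasd2 (0.93). For Scn7a the genes were Fam78b (0.93) and B830012L14Rik (0.87), for Scn2b Sv2a (0.87) and Slc6a17 (0.86), and for Scn4b Mark1 (0.93) and Lrrc10b (0.90). Nefh-type neurons had under 20 cells in every library and do not enter.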

How the data were processed

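For each 10x 3′ library the authors deposited a matrix of UMI counts, written by Cell Ranger 3.0.2 (mm10, per the labels), without normalization and limited to barcodes called as cells. Reads had been counted by the authors before deposit, and the annotation version is not given in the sources used here; positions are from GENCODE vM21. The single-cell data are not described in the methods of the paper.

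Cells needed at least 500 genes and no more than 20% of UMIs from mitochondrial genes, and the 104 Scrublet calls (1.08% of 9662 cells; scanpy 1.11.5, exact neighbours, expected rate 5%) were dropped. A cell took the class with the highest mean z-score of its markers if that score was at least 0.5 and at least 0.5 above the next; neuron types were called likewise. UMIs were summed per class and library to CPM, with exact Poisson, Clopper-Pearson and conditional binomial intervals (95%, scipy 1.17.1), which cover counting error only. A gene was compared with at least 20 summed UMIs and called past 2-fold. A count of 0 is read against 3 counts. On simulated counts at the depths of the naive and day 7 neurons the fold calls were checked against known changes. The outcome of that check is not given here, so the calls do not rest on it.

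The named genes were the 9 members, the listed partners, and 2 genes per member by likeness. Some other genes of the family are not reported here. The members and lists were chosen with earlier results of these data known. The gate margins, the injury marker threshold and depth limit, the split within types and the weighting by type were set after values had been seen. The sources differ on the animals: the paper's methods give younger, female mice, and its Results another nerve operation, whereas the labels, followed here, give male mice and SNI, the operation its Discussion names too.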

Additional observations from a re-analysis of the deposited data

How the results depend on the processing

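No paired analysis was possible because a single library stands for each condition, and no replicate could be left out. The alternatives changed the cell filter, doublets, cell classes, scaling and depth; those on injury markers, and the combination of gate and cluster, were chosen after seeing the data. Of the log2 ratios recomputed, 859 stayed within the counting interval of the reported value, 127 moved outside it and 1, past 2-fold as reported, changed sign. Among the 859 and 127, 67 ratios that were below 2-fold as reported lay on the other side of 0. Most that moved did so with every cell counted equally, with neurons of little glial RNA, or with the stricter filter (from 1000 genes, up to 10% mitochondrial). The called ratio that changed sign was Scn2b in Mrgprd-type neurons at day 14, with a log2 ratio of 2.26 under Leiden clusters. The members at least 2-fold lower in pooled neurons numbered 4 at day 7 with every cell counted equally, when the partners higher numbered 0 in place of 1, and 2 at day 14 under the stricter filter. In neurons with over without injury markers at day 7, 1 member was at least 2-fold higher under the stricter filter, the wider gate margin or little glial RNA, in place of 0, and 4 were lower with neurons of any depth and every cell counted equally, in place of 8. For Scn7a in non-myelinating Schwann cells, the day 7 log2 ratio of −0.15 became 0.42 under the stricter filter, 0.042 under Leiden clusters, 0.059 with the wider margin and 0.044 in cells of both gate and cluster. The day 14 value of −0.70 became −0.19, −0.89, −0.34 and −0.58 in the same order, and −0.90 with no filter. The cause was not tested. The shallow day 7 neurons limit every day 7 value read per cell.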

Other observations

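Mural cells could be divided further, after their values were seen, by whether the UMIs of the smooth muscle genes Acta2 and Myh11 exceeded those of the pericyte genes Rgs5 and Kcnj8. The smooth muscle side (52, 43 and 59 cells) held 181, 250.2 and 239 CPM of Scn4b in the naive, day 7 and day 14 libraries, and the pericyte side (74, 57 and 116 cells) 91.1, 91.1 and 76.1 CPM. Scn2b had the same order, with 96.9, 87.7 and 55.2 CPM against 26.8, 28.5 and 5.63 CPM. Scn3a did not keep 1 order, with 16.9, 114 and 73.5 CPM on the smooth muscle side and 80.4, 91.1 and 53.5 CPM on the pericyte side. The smooth muscle cells were the deeper ones, with medians of 4619.5, 6861 and 6296 UMIs against 2059.5, 2463 and 2674.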
